A study of Mus musculus with 12 samples.

Results

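The genes described here are the chemokines and the receptors that bind them, 56 protein-coding genes of 55401 genes counted in mouse liver. They were taken by name: the numbered Ccl, Cxcl, Ccr and Cxcr genes, Cx3cl1, and the atypical receptors Ackr1 to Ackr4. A gene was counted as expressed at all when the 12 libraries together held at least 120 counts, which 25 of the 56 did. Of the rest, 21 had fewer counts and 10 had 0 in all 12 libraries.

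RNA came from whole livers of male C57BL/6 mice, for which the labels give an age of 8 to 10 weeks, in 4 groups of 3 libraries. All mice carried the floxed Lpcat3 allele (LPCAT3flox/flox). Lpcat3 encodes an enzyme that places polyunsaturated fatty acids into phospholipids. The FLOX groups carried that allele alone and the LKO groups carried it with cre (LPCAT3flox/flox-cre), and the labels do not say which promoter drives the recombinase. Each genotype was given a control diet (NC) or the HFHS diet for 16 weeks, a diet rich in fat whose sugar is called sucrose in 1 part of the labels and fructose in another. Nothing in the labels ties the libraries to separate mice, and the p-values then cover only the spread among libraries, which may be technical.

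Chemokines are small secreted proteins that steer the movement of white blood cells, which sense them with receptors coupled to G proteins. In the liver they are made by hepatocytes, resident macrophages called Kupffer cells, endothelium and stellate cells, and ligands such as Ccl2 and Cxcl9 draw monocytes and T cells into inflamed tissue. Atypical receptors bind chemokines without G protein signalling and take them out of the tissue or hold them in place.

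Total counts ran from 34951150 to 59205759 per library, and a ribosomal RNA gene took 5.81 to 9.45% of them in the NC libraries other than FLOX-NC replicate 1 (32.7%) and 8.33 to 26.7% in the HFHS libraries. FLOX-NC replicate 1 and FLOX-HFHS replicate 1 stood apart with low scaling factors of 0.752 and 0.644, and LKO-HFHS replicate 3 with a high one of 1.46. The others ran from 0.946 to 1.2. Lpcat3 stood at 49.7, 49.9 and 61.9 CPM (counts scaled to library size, with TMM factors) in FLOX-NC and at 72.6, 80.6 and 75.7 in FLOX-HFHS, against 25, 25.9 and 29.4 in LKO-HFHS. In LKO-NC it stood at 25.4, 65 and 19.4, so the library labelled LKO-NC replicate 2 goes against its label. The main calls among the 56 genes that this library enters are given with and without it. Calls of genes outside the 56 are given only with it. The summed hepatocyte markers (Alb, Apoa1 and others) stood between 43200 and 99900 CPM in every library, as the tissue label says.

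Of 37 ligand genes, 17 had at least 120 counts, as had 4 of the 15 conventional receptors and all 4 atypical receptors. The 10 genes at 0 counts were the ligands Cxcl3, Cxcl15, Cxcl17, Ccl26, Ccl21b and Ccl21d and the receptors Ccr3, Ccr6, Ccr8 and Ccr10. A count of 0 over 553389215 counts allows a level of up to 0.00542 CPM (3 counts, counting error only). The genes with fewer than 120 counts but more than 0 were Cxcl2, Cxcl5, Ccl1, Ccl3, Ccl8, Ccl11, Ccl12, Ccl17, Ccl19, Ccl20, Ccl21a, Ccl22, Ccl27b, Ccl28, Ccr1l1, Ccr4, Ccr9, Cxcr1, Cxcr2, Cxcr3 and Cxcr5. Cxcl2 with 115 counts lay just under the minimum and Ccl7 with 126 just above it. Of the 56 genes, 32 were kept by the filter for low counts and tested, namely the 25 with at least 120 counts and 7 below it (Cxcl2, Cxcl5, Cxcr2, Cxcr3, Cxcr5, Ccl19 and Ccl22).

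Cxcl12, the ligand of Cxcr4 that keeps blood stem cells and lymphocytes in place, had the highest level per length. Its deposited FPKM averaged 42.4 over the 12 libraries and ran from 17.2 to 60.3. Ccl9 and Ccl27a followed with averages of 12.5 (range 1.89 to 26.5) and 11.8 (6.83 to 17.9). These were followed by Cxcl1 (3.98), Ccl6 (2.53), Ccl25 (2.49), Cxcl9 (2.38), Cxcl16 (2.01), Ccl5 (1.75) and Cxcl10 (1.39). Within libraries Cxcl12 was the highest of the 56 genes in all 12, and Ccl27a exceeded Cxcl1 in all 12. The order of the other neighbours varied between libraries. Ccl9 exceeded Ccl27a in 7 of the 12 and Ccl6 exceeded Ccl25 in 6, and no other neighbours kept their order in more than 9. The receptor with the highest level was Cxcr4, at 0.828 FPKM (0.366 to 1.52), and the atypical receptor Ackr4 stood at 0.366 (0.116 to 0.951).

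**Figure D1:**
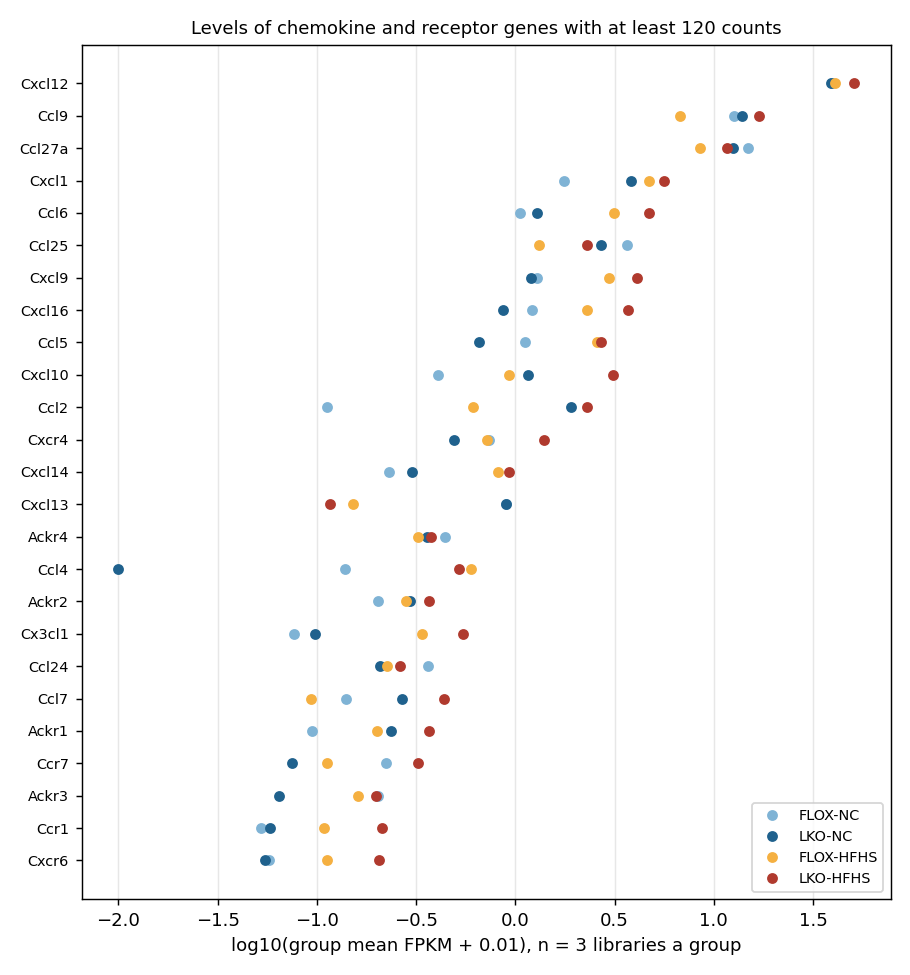
Mean deposited FPKM of each group (points, 3 libraries a group) for the 25 genes with at least 120 counts, on a log10 scale after adding 0.01. Cxcl12 lies at the top of the scale in all 4 groups, and the 1 receptor value above 1 FPKM is that of Cxcr4 in LKO-HFHS, at 1.39.

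Several of these genes share sequence or position with others, which limits their counts. Ccl27a overlaps Il11ra1 on the opposite strand and has near-identical copies, so its level is uncertain, as are those of Ccl27b, Ccl19 and the Ccl21 genes. Ccl25 overlaps Elavl1, Cxcl16 overlaps Zmynd15, Cxcl10 overlaps Art3, Ackr4 lies within Acad11, Ccr9 overlaps Lztfl1, Cxcr6 overlaps Fyco1 and Cxcr5 overlaps Bcl9l, each on the opposite strand. Ackr1 overlaps Cadm3 on the same strand. A stranded kit is named in the labels, but whether the counting used strand is not given in the sources used here.

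Chemokine genes lie in clusters, and 2 pairs of neighbours are used below. Ccl6 (chr11:83587882-83593087, minus strand) and Ccl9 (chr11:83572919-83578636, minus strand) are CC ligands of mouse with the receptor Ccr1, and 9245 bases lie between them. Cxcl9 (chr5:92321347-92328079, minus strand) and Cxcl10 (chr5:92346638-92348889, minus strand) are ligands of Cxcr3 induced by interferon, with 18558 bases between them. Their promoters, the 250 bases before the RefSeq start in build GRCm38.p6, are shown with that of Cxcl14. This sets the letters of Ccl6, Cxcl9 and Cxcl14, which rose with the diet, beside those of the neighbours. For Cxcl16 and Ccl5, which also rose, no promoter was matched. Capitals mark matches on either strand to 3 short motifs, the kappaB consensus bound by NF-kappaB, the interferon response core (GAAA, 2 bases of any kind and GAAA), and the STAT motif TTCNNNGAA. The intervals are, all on the minus strand, chr11:83593088-83593337 for Ccl6, chr11:83578637-83578886 for Ccl9, chr5:92328080-92328329 for Cxcl9, chr5:92348890-92349139 for Cxcl10 and chr13:56296552-56296801 for Cxcl14.
Ccl6: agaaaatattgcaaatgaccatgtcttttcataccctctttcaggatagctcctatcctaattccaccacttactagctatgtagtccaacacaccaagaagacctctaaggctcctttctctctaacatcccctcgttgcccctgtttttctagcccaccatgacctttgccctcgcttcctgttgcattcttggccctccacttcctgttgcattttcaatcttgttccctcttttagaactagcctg
Ccl9: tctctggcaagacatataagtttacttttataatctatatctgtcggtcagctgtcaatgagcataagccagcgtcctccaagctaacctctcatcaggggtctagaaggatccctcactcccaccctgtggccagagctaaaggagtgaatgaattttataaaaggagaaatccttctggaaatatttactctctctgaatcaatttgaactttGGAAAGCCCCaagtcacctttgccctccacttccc
Cxcl9: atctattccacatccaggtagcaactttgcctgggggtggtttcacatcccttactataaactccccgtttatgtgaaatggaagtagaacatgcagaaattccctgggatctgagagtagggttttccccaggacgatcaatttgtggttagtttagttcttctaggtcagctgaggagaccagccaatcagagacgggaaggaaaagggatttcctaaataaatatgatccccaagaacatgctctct
Cxcl10: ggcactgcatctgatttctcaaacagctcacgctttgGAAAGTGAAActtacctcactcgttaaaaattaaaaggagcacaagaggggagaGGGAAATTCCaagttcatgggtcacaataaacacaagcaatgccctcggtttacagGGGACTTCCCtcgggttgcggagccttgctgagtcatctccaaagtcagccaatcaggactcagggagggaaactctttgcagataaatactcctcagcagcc
Cxcl14: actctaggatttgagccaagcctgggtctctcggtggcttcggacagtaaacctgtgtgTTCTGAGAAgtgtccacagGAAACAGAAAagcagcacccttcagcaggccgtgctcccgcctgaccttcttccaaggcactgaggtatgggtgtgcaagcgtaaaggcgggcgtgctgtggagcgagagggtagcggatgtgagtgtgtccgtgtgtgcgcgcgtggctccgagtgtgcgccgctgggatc
These 3 motifs had no match in the windows of Ccl6 and Cxcl9. Ccl9 had 1 kappaB match, whose first base lay at -35 from the start. Cxcl10 had 2 kappaB matches, at -159 and -103, and 1 interferon core, at -213. Cxcl14 had 1 interferon core, at -172, and 1 STAT motif, at -191. Among 32851 promoters of the same length in the RefSeq table, 3.9% held the kappaB consensus, 2.98% the interferon core and 7.02% the STAT motif. A promoter was matched for 43 of the 56 genes and 23 of the 32 tested, and 5, 3 and 1 of those 23 held the motifs in that order. These counts are per gene, where a gene with several promoters counts once, whereas the shares are per promoter. Among tested genes, the kappaB matches outside these windows were in Ackr2, Cxcl1 and Cxcl2, and the third interferon core was in Ccl19. A match is a run of letters, and binding was not measured here.

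The first question was how the HFHS diet changed these genes over both genotypes. Averaged over genotypes, 5 of the 32 tested genes rose and 1 fell at an adjusted p of 0.05 (edgeR quasi-likelihood test, Benjamini-Hochberg over 15982 genes). Among all genes tested, 6.17% rose and 4.94% fell. Those that rose were the ligands Cxcl9, Ccl6, Cxcl16, Ccl5 and Cxcl14, and the one that fell was the ligand Cxcl13. For fits that left out 1 library, the share of all genes called is not given here. Without LKO-NC replicate 1 or LKO-HFHS replicate 1 the number called was 3. Without the library labelled LKO-NC replicate 2 it was 5, namely Cxcl9 (1.47 ± 0.25 on the log2 scale, adjusted p = 0.00472), Ccl6 (1.51 ± 0.30, 0.0109), Cxcl16 (1.14 ± 0.23, 0.0125), Cxcl13 (-3.08 ± 0.83, 0.0445) and Ccl5 (1.56 ± 0.42, 0.0465). The median log2 fold change was 0.81 over the 32 genes and 0.02 over all genes. The filter can keep a gene of few counts through its HFHS libraries. Ccl4, for example, had no counts in any NC library but FLOX-NC replicate 3. The median of the 32 genes is therefore a description and no test of the family. For Cxcl9 and Ccl6 all 6 HFHS libraries lay above all 6 NC libraries, which held for 4.16% of all genes. The share of the ribosomal RNA gene moved with the diet, and with that share as a covariate 7 genes were called (18.8% of all genes), with Ccl4 and Ccl25 added and Ccl5 lost. DESeq2 called 8 (18.1% of all genes), limma voom with quality weights 13 (30.2%) and the edgeR test blocked by replicate number 9 (18.3%). In RNA from whole liver, fewer cells of a type and less RNA per cell cannot be told apart.

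**Figure D2:**
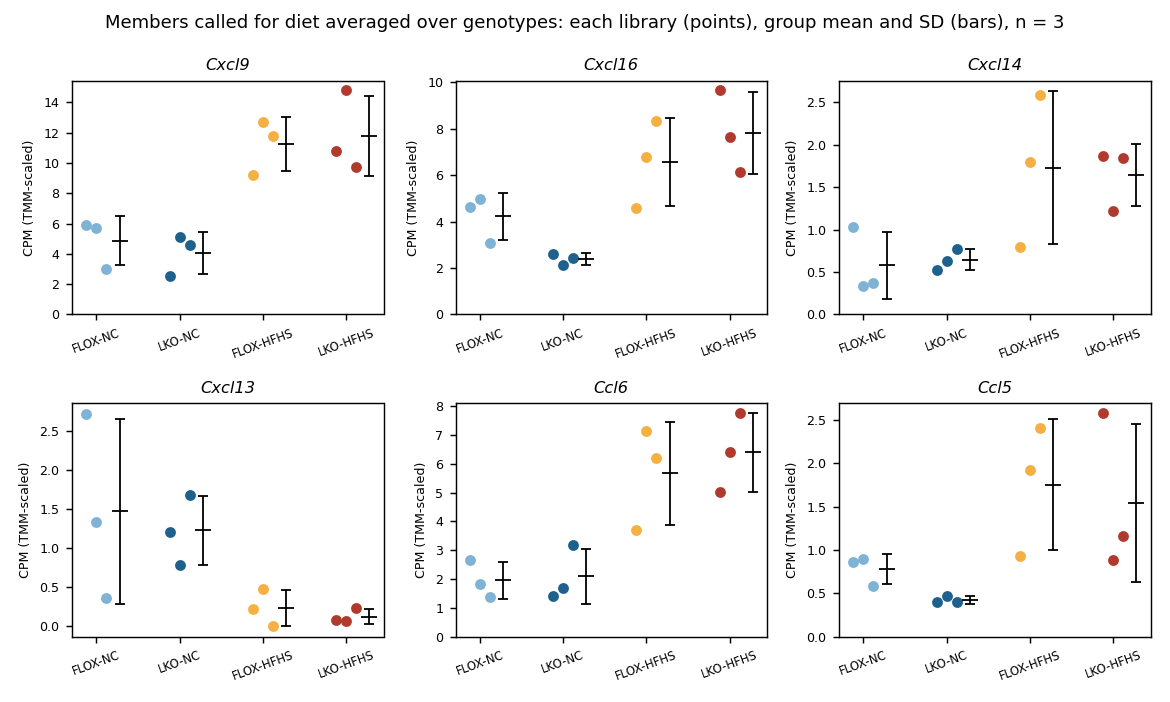
Scaled CPM of the 6 genes called for the diet averaged over genotypes, with each library as a point and the mean and SD of each group of 3 as a bar. Cxcl9 and Ccl6 are higher in every HFHS library than in any NC library, and Cxcl13 is lower in all HFHS libraries but 1 than in any NC library.

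Cxcl9, which attracts activated T and NK cells through Cxcr3, stood at 5.90, 5.74 and 3 CPM in FLOX-NC and at 9.24, 12.7 and 11.8 in FLOX-HFHS. In LKO-NC it stood at 2.51, 5.09 and 4.60 CPM and in LKO-HFHS at 10.8, 14.8 and 9.74. In both genotypes each HFHS library lay above each NC library. The mean was 11.5 ± 2.05 CPM with HFHS and 4.47 ± 1.42 with NC (SD, n = 6 each), a rise of 1.37 ± 0.23 on the log2 scale (fitted value and SE, 2.59-fold, adjusted p = 0.00253). Cxcl10, its neighbour, stood at 0.663, 1.58 and 1.05 CPM in FLOX-NC and 0.765, 1.76 and 3.10 in LKO-NC, and with the diet at 2.62, 1.51 and 2.00 in FLOX-HFHS and 1.78, 3.63 and 4.66 in LKO-HFHS. Its diet groups overlapped and its log2 fold change of 0.86 ± 0.38 did not pass the test (adjusted p = 0.168).

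The ratio of these neighbours within a library was compared after the values had been seen. The log2 ratio of Cxcl9 to Cxcl10 counts was 2.18 ± 0.71 with HFHS and 1.71 ± 0.82 with NC (SD, n = 6 each), a difference of 0.47 that did not exceed the spread (exact permutation test within genotype, two-sided, p = 0.26, adjusted over 2 pairs 0.26). Leaving out 1 library at a time moved the difference between 0.25 and 0.76, and it was 0.44 without the library labelled LKO-NC replicate 2.

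Ccl6, which attracts macrophages and other myeloid cells in mouse, stood at 2.65, 1.83 and 1.39 CPM in FLOX-NC and at 3.69, 7.15 and 6.19 in FLOX-HFHS. In LKO-NC it stood at 1.42, 1.68 and 3.19 CPM and in LKO-HFHS at 5.02, 6.41 and 7.75. The lowest HFHS library, FLOX-HFHS replicate 1, still lay above the highest NC library. The rise was 1.57 ± 0.27 on the log2 scale (2.98-fold, adjusted p = 0.00304). Ccl9, which lies next to it, stood at 12.6, 32.0 and 91.0 CPM in FLOX-NC and 36.8, 62.4 and 47.9 in LKO-NC, and with the diet at 10.6, 37.8 and 27.3 in FLOX-HFHS and 25.6, 67.7 and 51.3 in LKO-HFHS. Replicates of Ccl9 differed by more than the diets did, and its log2 fold change was -0.43 ± 0.44 (adjusted p = 0.586).

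The ratio of Ccl6 to Ccl9 differed between the diets. Its log2 value was -2.42 ± 0.63 with HFHS and -4.36 ± 1.29 with NC (SD, n = 6 each), a difference of 1.94 (exact permutation test within genotype, two-sided, 400 arrangements, p = 0.01, adjusted over 2 pairs 0.02). The smallest p this test allows is 0.005. This comparison was chosen after the values had been seen, with Ccl6 called for the diet and Ccl9 not. The adjustment over 2 pairs does not cover that choice. The difference ran from 1.61 to 2.36 when 1 library was left out (1.77 without the library labelled LKO-NC replicate 2). It was 2.15 without the 4 libraries numbered 1, where p = 0.0556 is the smallest the exact test allows.

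**Figure D3:**
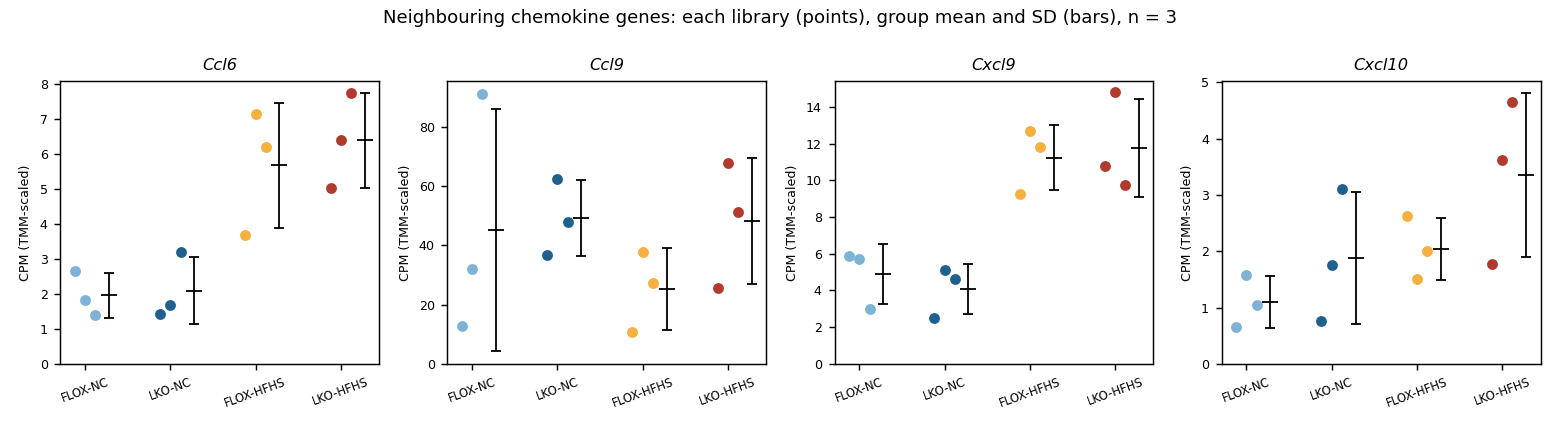
Scaled CPM of the neighbours Ccl6 and Ccl9 and of Cxcl9 and Cxcl10, with each library as a point and the mean and SD of each group of 3 as a bar. Ccl6 and Cxcl9 are higher in every HFHS library, whereas the groups of Ccl9 and Cxcl10 overlap.

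Cxcl16 is a membrane-bound ligand of Cxcr6 that also takes up oxidised lipoprotein. It stood at 4.64, 4.97 and 3.07 CPM in FLOX-NC and 2.61, 2.13 and 2.43 in LKO-NC, and with the diet at 4.58, 6.80 and 8.33 in FLOX-HFHS and 9.68, 7.65 and 6.12 in LKO-HFHS. The FLOX diet groups overlapped at FLOX-HFHS replicate 1, and the LKO diet groups did not overlap. Averaged over genotypes it rose by 1.17 ± 0.21 on the log2 scale (2.26-fold, adjusted p = 0.00342). Its receptor Cxcr6, found on resident T and NKT cells of the liver, had 133 counts in all and a log2 fold change of 1.53 ± 1.23 (adjusted p = 0.474).

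Ccl5, which draws T cells and macrophages, stood at 0.862, 0.902 and 0.589 CPM in FLOX-NC and 0.396, 0.473 and 0.397 in LKO-NC, and with the diet at 0.933, 1.92 and 2.41 in FLOX-HFHS and 2.58, 0.885 and 1.16 in LKO-HFHS. Only LKO-HFHS replicate 2 fell within the range of the NC libraries. The rise over both genotypes was 1.51 ± 0.38 on the log2 scale (2.86-fold, adjusted p = 0.0225). The call was lost without LKO-NC replicate 1 (adjusted p = 0.0517), FLOX-HFHS replicate 2 (0.0597), FLOX-HFHS replicate 3 (0.0742) or LKO-HFHS replicate 1 (0.067), and in a fit that took the share of ribosomal RNA into account (0.0536).

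Cxcl14, a chemokine of epithelia whose receptor is not settled, stood at 1.03, 0.330 and 0.375 CPM in FLOX-NC and 0.528, 0.630 and 0.775 in LKO-NC, and with the diet at 0.800, 1.80 and 2.59 in FLOX-HFHS and 1.87, 1.22 and 1.84 in LKO-HFHS. The diets overlapped through FLOX-NC replicate 1 and FLOX-HFHS replicate 1. It rose by 1.48 ± 0.41 on the log2 scale (2.78-fold, adjusted p = 0.0341). The call was lost without FLOX-NC replicate 2 (adjusted p = 0.0712) or 3 (0.0601), LKO-NC replicate 1 (0.076), 2 (0.0727) or 3 (0.0513), FLOX-HFHS replicate 2 (0.0767) or 3 (0.105), or LKO-HFHS replicate 1 (0.0681) or 3 (0.0839).

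Cxcl13, the ligand of Cxcr5 that gathers B cells into follicles, was the gene that fell. It stood at 2.72, 1.34 and 0.357 CPM in FLOX-NC and 1.21, 0.788 and 1.68 in LKO-NC, against 0.222, 0.471 and 0 in FLOX-HFHS and 0.071, 0.060 and 0.228 in LKO-HFHS. Only FLOX-NC replicate 3 and FLOX-HFHS replicate 2 crossed. It fell by 2.97 ± 0.79 on the log2 scale (7.83-fold lower, adjusted p = 0.0291). The call was lost without FLOX-NC replicate 1 (adjusted p = 0.0523), LKO-NC replicate 1 (0.0514) or 3 (0.0606), LKO-HFHS replicate 1 (0.0626) or 2 (0.0735), or the 4 libraries numbered 1 (0.137).

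The receptors Ccr1 and Ccr7 did not pass the edgeR test. Ccr1, the receptor of Ccl6 and Ccl9, had a log2 fold change of 1.32 ± 0.64 (adjusted p = 0.208), and Ccr7, which guides cells to lymph nodes, one of 0.61 ± 0.56 (adjusted p = 0.544). By limma voom Ccr1 was called (adjusted p = 0.0481).

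Among the other ligands, Cx3cl1 stood nearest to the threshold. This membrane-bound ligand of Cx3cr1 stood at 0, 0.088 and 0.679 CPM in FLOX-NC and 0.607, 0.105 and 0.379 in LKO-NC, and with the diet at 0.622, 1.19 and 2.30 in FLOX-HFHS and 3.01, 1.32 and 1.33 in LKO-HFHS. FLOX-HFHS replicate 1 lay within the NC range. The diet gave a log2 fold change of 2.36 ± 0.73 (adjusted p = 0.0564). It was called by DESeq2 (0.00679) and limma voom (0.00401) and with the replicate block (0.0187). Its receptor Cx3cr1, which monocytes and some macrophages carry and which is outside the 56, stood between 0.473 and 2.88 CPM with NC and between 2.46 and 11.4 with HFHS, and rose by 2.66 ± 0.48 on the log2 scale (adjusted p = 0.00362).

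Cxcl12, the ligand of highest level, did not pass the edgeR test. It stood at 100, 113 and 171 CPM in FLOX-NC and 99.5, 131 and 114 in LKO-NC, and with the diet at 82.8, 150 and 135 in FLOX-HFHS and 97.7, 135 and 119 in LKO-HFHS. All 4 groups overlapped, and the diet gave a log2 fold change of -0.02 ± 0.19 (adjusted p = 0.965). Its receptor Cxcr4 stood between 0.865 and 2.75 CPM, with a log2 fold change of 0.57 ± 0.29 (adjusted p = 0.237; 0.0379 by limma voom).

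Cxcl12 has splice forms with different tails, and the deposited transcript counts place them apart. With the counts of all libraries added up, the form of 89 residues (Cxcl12-202) took 50.8% of the Cxcl12 counts, that of 93 residues (Cxcl12-203) 30.6%, that of 119 residues (Cxcl12-201) 12.3% and a transcript with a retained intron (Cxcl12-204) 6.24%. The share of the shortest form was 36.5 ± 9.24% in FLOX-NC and 46.8 ± 10.5% in LKO-NC, against 50.2 ± 16.6% in FLOX-HFHS and 56.4 ± 6.52% in LKO-HFHS (SD, n = 3 each). That of the form of 93 residues was 39.8 ± 14.0% in FLOX-NC and 36.4 ± 15.1% in LKO-NC, against 33.5 ± 14.2% in FLOX-HFHS and 26.7 ± 6.76% in LKO-HFHS. By counts, the shortest form exceeded that of 93 residues in 8 of the 12 libraries. For the shortest form LKO-HFHS (49 to 61.2%) lay above FLOX-NC (28.5 to 46.6%) and the other groups overlapped, and the shares are given as a description with no test. Transcript counts are estimates that divide reads of shared exons. They were not divided by transcript length, which is 1878 bases for Cxcl12-202, 3132 for Cxcl12-203, 5627 for Cxcl12-201 and 2894 for Cxcl12-204. The shares and the order of the forms are therefore those of counts and not of molecules.

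**Figure D4:**
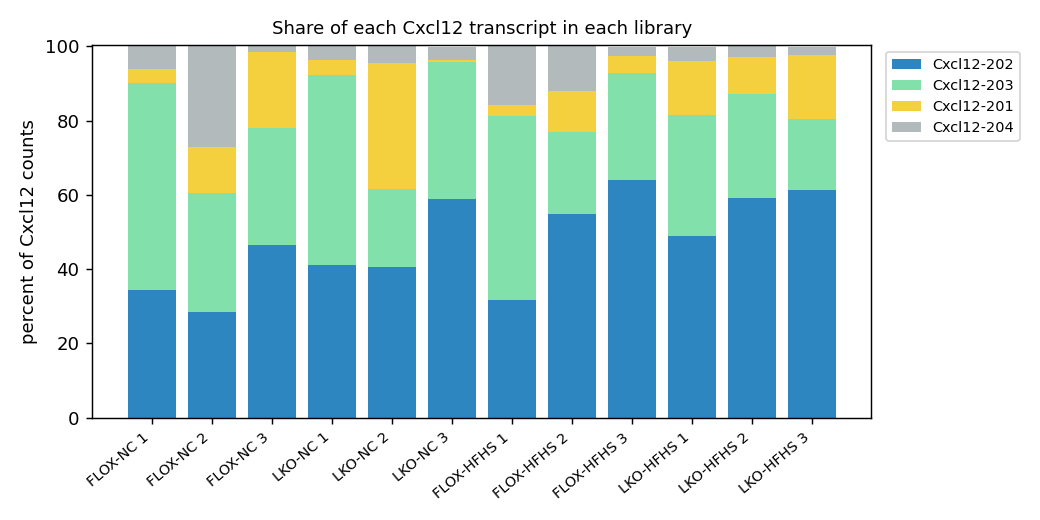
Share of each Cxcl12 transcript in the Cxcl12 counts of each of the 12 libraries, in percent. Cxcl12-202 and Cxcl12-203 hold most counts in every library, and the share of Cxcl12-201 varies between libraries of 1 group as much as between groups.

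Cxcl1, which draws neutrophils through Cxcr2, stood at 4.51, 2.58 and 2.23 CPM in FLOX-NC and 12.4, 3.28 and 3.86 in LKO-NC, and with the diet at 28.4, 3.50 and 4.75 in FLOX-HFHS and 9.94, 3.33 and 8.49 in LKO-HFHS. The highest library of every group was replicate 1, and FLOX-HFHS replicate 1 held the highest value of all. The log2 fold change of 1.06 ± 0.54 did not pass (adjusted p = 0.232). Cxcl2 and Cxcl5, with the same receptor, had 115 and 78 counts in all and did not pass either (adjusted p = 0.474 and 0.18), while limma voom called Cxcl2 (0.0232).

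Ccl27a and Ccl25 are better known from skin and from thymus and gut. Ccl27a stood at 16.9, 12.5 and 9.31 CPM in FLOX-NC and 13.2, 9.08 and 5.52 in LKO-NC, and with the diet at 14.0, 5.96 and 5.33 in FLOX-HFHS and 8.76, 6.71 and 6.46 in LKO-HFHS. Its groups overlapped, with a log2 fold change of -0.48 ± 0.28 (adjusted p = 0.304), and its receptor Ccr10 was at 0 counts. It was called as lower with the replicate block (adjusted p = 0.0495) and by limma voom (0.021). Ccl25 stood at 9.22, 3.79 and 4.16 CPM in FLOX-NC and 4.59, 1.73 and 3.91 in LKO-NC, and with the diet at 2.35, 2.83 and 2.49 in FLOX-HFHS and 4.36, 1.49 and 2.71 in LKO-HFHS. Its FLOX diet groups did not overlap, its LKO ones did, and the log2 fold change of -0.71 ± 0.33 did not pass (adjusted p = 0.197), though it was called as lower with the share of ribosomal RNA as covariate (adjusted p = 0.0278). Its receptor Ccr9 had 47 counts in 6 libraries.

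Ccl2, which draws monocytes, stood at 0.365, 0 and 0.0893 CPM in FLOX-NC and 2.88, 0 and 3.25 in LKO-NC, and with the diet at 1.47, 0.505 and 0.720 in FLOX-HFHS and 1.40, 1.49 and 2.68 in LKO-HFHS. The libraries at 0 were FLOX-NC replicate 2 and the library labelled LKO-NC replicate 2. The diet gave a log2 fold change of 1.25 ± 0.88 (adjusted p = 0.407). Ccl4, which draws T cells and macrophages, had counts in 6 of the 12 libraries. It averaged 0.399 ± 0.261 CPM with HFHS and 0.0506 ± 0.124 with NC (SD, n = 6 each), where FLOX-NC replicate 3 was the 1 NC library with counts. It did not pass the edgeR test (adjusted p = 0.085) and was called by DESeq2 (0.0311) and by limma voom (0.00956). The edgeR fit called it with the replicate block (0.0381), with the share of ribosomal RNA as covariate (0.00851) and without FLOX-NC replicate 3 (0.0301). Ccl7 and the eosinophil ligand Ccl24 had log2 fold changes of -0.30 ± 1.34 and -0.19 ± 0.64 (adjusted p = 0.918 and 0.889).

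None of the 4 atypical receptors passed the edgeR test, while limma voom called Ackr1 as higher averaged over genotypes (adjusted p = 0.0345) and in FLOX (0.0459). Their fold changes on the log2 scale were 0.76 ± 0.77 for Ackr1, 0.33 ± 0.72 for Ackr2, 0.65 ± 1.08 for Ackr3 and -0.27 ± 0.49 for Ackr4, at adjusted p from 0.587 to 0.824. Ackr1 binds many inflammatory ligands on venules and red cells, Ackr2 scavenges inflammatory CC ligands, Ackr3 binds Cxcl12, and Ackr4 scavenges Ccl19, Ccl21 and Ccl25.

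Within LKO livers the diet raised 3 of the 32 genes (2.25% of all genes rose) and lowered 0 (1.5% of all genes fell). Cxcl16 rose by 1.71 ± 0.30 on the log2 scale (adjusted p = 0.0076), Cxcl9 by 1.53 ± 0.33 (0.0216) and Ccl6 by 1.60 ± 0.39 (0.0385). The HFHS libraries lay above the NC libraries for 10 of the 32 genes, which held for 16.9% of all genes, and below them for 1, Cxcl13, which held for 13%. Ccl5 at 1.86 ± 0.55 (adjusted p = 0.0838), Cxcr4 at 1.25 ± 0.42 (0.128) and Cxcl13 at -3.31 ± 1.13 (0.133) did not pass the edgeR test. Without the library labelled LKO-NC replicate 2 they stood at 1.95 ± 0.65 (adjusted p = 0.211), 1.29 ± 0.50 (0.284) and -3.54 ± 1.22 (0.223). DESeq2 called 7 genes (10% of all genes), which were the 3 above with Ccl5 (0.0146), Cxcl13 (0.0193), Cxcr4 (0.0384) and Ccr7 (0.0473). Limma voom called 5 (14.3%), with Cxcl13 and Cxcr4 added, and limma on log2 FPKM called 5 (4.08%) after adding 0.1 and 6 (4.53%) after adding 1. Cxcl13 was also called in a fit of the 6 LKO libraries alone (0.0382). Ccl4 had 0, 24 and 39 counts in the LKO-HFHS libraries (63 in all) and 0 in LKO-NC, so these groups overlapped at 0. Cxcl5 had 14, 14 and 13 (41 in all) and 0. Against 3 counts over the group, the summed counts were at least 15.4-fold and 10-fold higher. These bounds cover counting error only and not the spread between libraries. Neither gene passed the edgeR test (adjusted p = 0.172 and 0.186). With the share of ribosomal RNA as covariate in the edgeR fit, Ccl4 was called (adjusted p = 0.0442).

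These calls depended in part on single libraries, and 1 was left without LKO-NC replicate 1 or any 1 of the 3 LKO-HFHS libraries. The share of all genes in these fits is not given here. Without the library labelled LKO-NC replicate 2, Cxcl16 (adjusted p = 0.0442) and Cxcl9 (0.0455) still passed and Ccl6 did not (0.167). Ccl6 also lost its call without FLOX-NC replicate 2 (0.0541), LKO-NC replicate 1 (0.14), FLOX-HFHS replicate 2 (0.0542) or 3 (0.0657), or LKO-HFHS replicate 1 (0.0604), 2 (0.101) or 3 (0.156). Cxcl9 lost it without LKO-NC replicate 1 (0.0768) or 3 (0.0538), or LKO-HFHS replicate 1 (0.0504), 2 (0.0899) or 3 (0.0509). Without the 4 libraries numbered 1, Cxcl9 was not called (adjusted p = 0.0585). Cxcl16 passed in each of the 26 alternatives tried.

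Within FLOX livers 0 of the 32 genes passed, where 1.6% of all genes rose and 1.31% fell. At an unadjusted p of 0.05, 9 did, against 17.7% of all genes. DESeq2 called 2 (Ccl6 and Cxcl9; 8.11% of all genes), limma voom with quality weights called 7 (18.9%), and limma on log2 FPKM called 0 (1.73% after adding 0.1 and 1.08% after adding 1). The first 2 counts lie near the shares of all genes. The edgeR test called 1 without FLOX-NC replicate 1 or 3, LKO-NC replicate 1 or 3, or FLOX-HFHS replicate 1. The share of all genes in those fits is not given here. The log2 fold changes were 1.55 ± 0.39 for Ccl6 (adjusted p = 0.0536, 0.00437 to 0.216 over the alternatives) and 1.21 ± 0.33 for Cxcl9 (0.0693, 0.0125 to 0.235). Those for Cxcl14 and Cxcl16 were 1.61 ± 0.58 (adjusted p = 0.166) and 0.64 ± 0.29 (0.278). The HFHS libraries lay above the NC libraries for 5 of the 32 genes (10.6% of all genes) and below for 1, Ccl25 (8.99%).

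**Figure D5:**
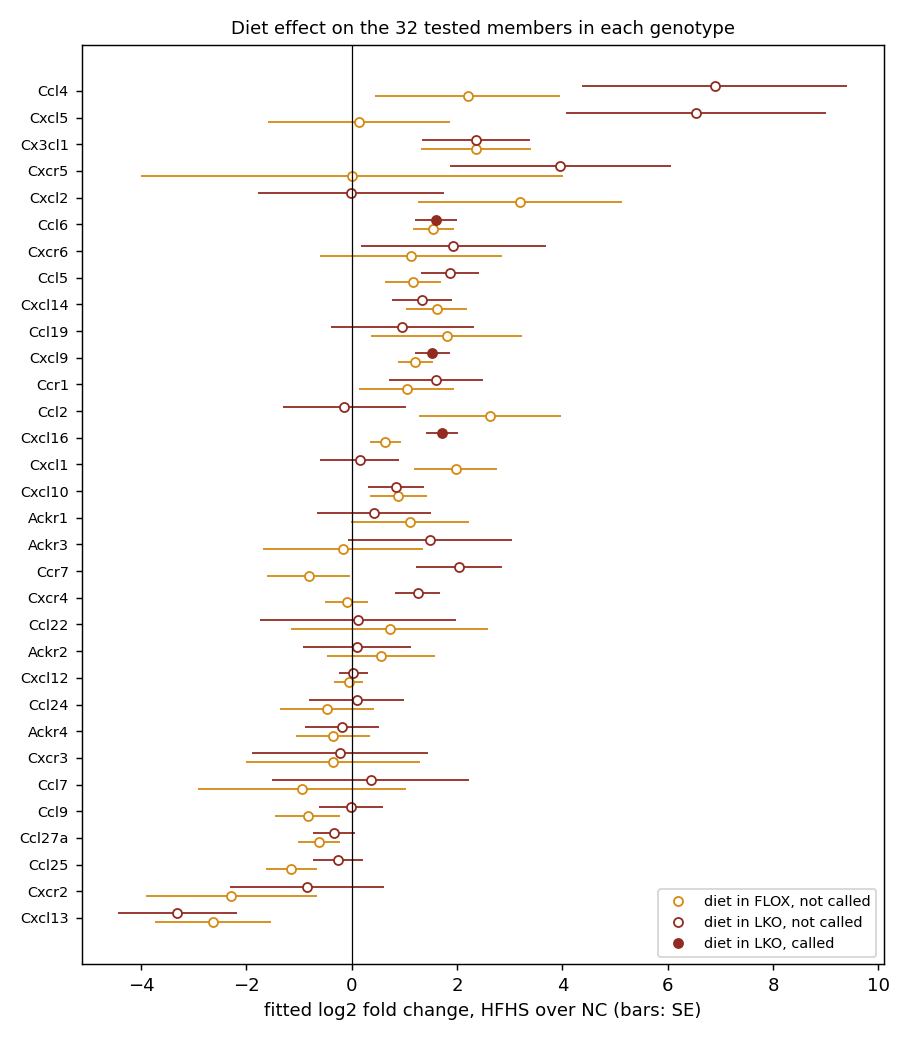
Fitted log2 fold change of HFHS over NC with its SE for the 32 tested genes, in FLOX and in LKO livers, with called values filled. The 3 called values are Cxcl16, Ccl6 and Cxcl9 in LKO, and the FLOX values of those genes also lie above 0. The LKO values of Ccl4 and Cxcl5 rest on 0 counts in LKO-NC and depend on the count added in the fit.

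Whether the diet effect differed between the genotypes was tested by the interaction, which called 0 of the 32 genes and 0% of all genes by edgeR. At an unadjusted p of 0.05 it gave 3, against 4.89% of all genes, namely Cxcl16 (log2 difference of 1.07 ± 0.42), Ccr7 (2.87 ± 1.14) and Cxcr4 (1.35 ± 0.59), all at an adjusted p of 0.955. DESeq2 and limma voom also called 0 (0.207% and 0% of all genes). The calls in LKO and their lack in FLOX therefore do not show a difference between genotypes. Without the library labelled LKO-NC replicate 2 the interactions of Cxcl16, Ccr7 and Cxcr4 were 0.99 ± 0.46, 3.28 ± 1.24 and 1.38 ± 0.65 (adjusted p = 1 for each). Their unadjusted p by edgeR was then 0.0522, 0.0217 and 0.0557, so Cxcl16 and Cxcr4 no longer lay under 0.05. Ccl2 then had the smallest unadjusted p of these genes, 0.0185, at a log2 difference of -3.36 ± 1.23, and was not called either.

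The knockout itself was compared on each diet. On NC, 0 of the 32 genes and 0% of all genes passed, and 3 genes had an unadjusted p under 0.05, against 7.06% of all genes. These were Ccl2 (log2 fold change of 3.84 ± 1.38), Cxcl16 (-0.82 ± 0.30) and Cxcl5, at adjusted p from 0.678 to 0.683. Cxcl5 had 0 counts in LKO-NC and 5, 16 and 0 in the FLOX-NC libraries (21 in all), so the groups overlapped at 0. Against 3 counts over the group its sum was at least 6.99-fold lower, a bound for counting error only and not for the spread between libraries. The 3 LKO-NC libraries lay below the 3 FLOX-NC libraries for 3 genes, Cxcl16, Ccr7 and Ccl5, which held for 4.58% of all genes. Without the library labelled LKO-NC replicate 2, Ccl2 stood at a log2 fold change of 4.44 ± 0.97 (adjusted p = 0.321) and Cxcl16 at -0.74 ± 0.35 (adjusted p = 0.957).

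On HFHS, 0 of the 32 genes and 0% of all genes passed, and 0 had an unadjusted p under 0.05, against 3.25% of all genes. The smallest unadjusted p was that of Ccl9 at a log2 fold change of 0.93 ± 0.62 (adjusted p = 1). Cxcl9 and Ccl6, which rose with the diet, gave log2 fold changes of 0.06 ± 0.32 and 0.17 ± 0.37 between LKO-HFHS and FLOX-HFHS. DESeq2 called 0 of these genes for the knockout on either diet (0.42% of all genes on NC and 0.286% on HFHS), as did limma voom (0.00626 and 0.488%). The diet comparisons and the knockout comparisons share libraries and are not independent of each other.

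The genes through which chemokine receptors signal rose in part with the diet. Of 28 tested genes of a list of this signalling, 6 rose and 0 fell averaged over genotypes (6.17 and 4.94% of all genes), and the list's median log2 fold change was 0.45. The 6 were Dock2 (1.78 ± 0.38, adjusted p = 0.0091) and Rac2 (1.45 ± 0.36), which drive the cytoskeleton of moving white blood cells, the G protein subunit Gng2 (1.55 ± 0.33), the exchange factor Vav1 (1.49 ± 0.40), the lipid kinase subunit Pik3cd (1.33 ± 0.34), and Rgs2 (1.43 ± 0.35), which ends G protein signals. In FLOX and in LKO alone 0 of the 28 passed. Of 6 tested ligands and receptors outside the 56, Cx3cr1 was the 1 that rose, in LKO (3.35 ± 0.70, adjusted p = 0.0193) and averaged.

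Among 25 tested inducers of chemokine genes 1 rose and 2 fell averaged over genotypes, with a median log2 fold change of 0.23. These counts lie near the shares of all genes, 6.17 and 4.94%. Tnfaip3, which is induced by NF-kappaB and restrains it, rose by 1.32 ± 0.39 (adjusted p = 0.0487). Myd88, the adaptor of most Toll-like receptors, fell by 0.62 ± 0.14 (adjusted p = 0.0134), and each HFHS library (6.44 to 11.8 CPM) lay below each NC library (13 to 16.9). The cytokine Il1b fell by 1.5 ± 0.36 (adjusted p = 0.0179). In FLOX, Il1r1, the receptor of that cytokine, rose by 0.97 ± 0.22 (adjusted p = 0.0343) and Il1b fell by 2.24 ± 0.53 (0.0399), and in LKO 0 of the 25 passed. Il17a was at 0 counts.

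Markers of myeloid cells moved in the same direction as the chemokine genes that rose. Averaged over genotypes, 8 of 10 Kupffer cell markers and 8 of 11 markers of monocytes and macrophages rose (6.17% of all genes), with median log2 fold changes of 1.5 and 1.98. The summed Kupffer markers ran from 63 to 119 CPM in FLOX-NC and 61.2 to 102 in LKO-NC, and with the diet from 156 to 308 in FLOX-HFHS and 191 to 228 in LKO-HFHS. The summed monocyte and macrophage markers ran from 29.2 to 40.6 CPM, 26.7 to 51.5, 58.7 to 141 and 108 to 160 in that order. No marker of these lists was at 0 in all libraries, and Cx3cr1 is 1 of them. The part of these cells in the rise of Ccl6, Cxcl9, Cxcl16, Ccl5 and Cxcl14 was not tested.

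Markers of lymphocytes and neutrophils did not pass. Of the tested markers 0 of 9 for T and NK cells, 0 of 7 for B cells, 0 of 5 for dendritic cells and 0 of 3 for neutrophils were called for the diet averaged over genotypes, and Ly6g, a defining neutrophil marker, was at 0. The summed T and NK cell markers ran from 3.93 to 5.26 CPM in FLOX-NC and 1.85 to 3.02 in LKO-NC, and with the diet from 1.69 to 4.95 in FLOX-HFHS and 3.17 to 4 in LKO-HFHS. The summed B cell markers, the cells that Cxcl13 attracts, ran from 9.79 to 13.8, 4.09 to 11.3, 6.75 to 11.7 and 9.33 to 16.2 CPM in that order. Of other lists, 7 of 8 stellate cell markers rose, as did 1 of 5 cholangiocyte markers (Epcam) and 1 of 8 markers of sinusoidal endothelium (Lyve1). Their median log2 fold changes were 1.42, 1.22 and 0.29. Of 7 hepatocyte markers 4 fell, with a median of -0.69. Among all genes 6.17% rose and 4.94% fell, which also stands beside the counts of 0 above. The single calls of Epcam and Lyve1 are too few to read as a result about their lists. The part of these cells in the results was not tested.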

How the data were processed

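Per the labels, polyadenylated RNA was sequenced after preparation with 2 kits, of which 1 is stranded. The tools named in the submitters' processing notes are edgeR, StringTie, HISAT2, FastQC and cutadapt (build mm10; versions and roles are not given in the sources used here). The deposited gene and transcript tables hold whole-number estimated counts with no normalization, and each gene count equals the sum of its transcript counts. The authors also deposited FPKM per gene, used here for levels between genes.

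Genes were filtered with filterByExpr, libraries scaled with TMM, and all 12 fitted in 1 group-means model in edgeR 4.0.16 (R 4.3.3) with 8 residual degrees of freedom. The quasi-likelihood test was planned for plain counts and kept for estimated counts, which needed no rounding. Adjusted p is Benjamini-Hochberg over 15982 genes, with calls at 0.05. SE is the log2 fold change divided by the root of the F statistic. CPM is TMM-scaled. The genes and lists were chosen with earlier results of these data known, and 2 further receptor genes are not reported here. Values in every library are given for genes called in any comparison, with an unadjusted p under 0.01 in a comparison of 2 groups, or among the 10 highest in FPKM, and for Ccl2 and Cx3cl1, added after their values were seen.

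Every pair of libraries within a group differed beyond counting noise (chi-square per gene from 81.77). Deviations from group means of same-numbered libraries correlated above 0.1 in all 3 pairs of the diet comparison in LKO (0.101 to 0.294) and in not all pairs of the others. The alternatives were RLE size factors, no scaling factor, other filters, DESeq2 1.42.0, limma 3.58.1 (voom, and log2 FPKM plus 0.1 or 1), a replicate block, a fit of only the 6 libraries compared, the share of ribosomal RNA as covariate, removing ribosomal RNA and mitochondrial genes, leaving out each library or the 4 numbered 1, and, for levels, FPKM from counts and lengths. The tests were run on simulated data first. Gene ratios used 0.5 added to each count. No column of the tables was without a sample (0).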

Additional observations from a re-analysis of the deposited data

How the results depend on the processing

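The number of chemokine and receptor genes called for the diet moved with the method, and so did the share of all genes where it is given. Counts below that stand without that share are no result about these genes. In FLOX livers it was 0 by the edgeR test, where 1.6% of all genes rose and 1.31% fell. It was 2 with DESeq2 (8.11% of all genes) and 7 with limma voom (18.9%). It was 1 with no filter, with a filter of 1 CPM in 3 libraries and with ribosomal RNA and mitochondrial genes removed. With the share of ribosomal RNA as covariate and without the 4 libraries numbered 1 it was 3, and 0 to 1 when each library was left out in turn. In LKO livers it was 3 by the edgeR test, where 2.25% of all genes rose and 1.5% fell. It was 7 with DESeq2 (10% of all genes) and 5 with limma voom (14.3%). With limma on log2 FPKM it was 5 after adding 0.1 (4.08%) and 6 after adding 1 (4.53%). When each library was left out it was 1 to 3. Averaged over genotypes it was 6 (6.17% of all genes rose and 4.94% fell), against 13 with limma voom (30.2%). When each library was left out it was 3 to 7. Both knockout comparisons and the interaction gave 0 under every alternative run. With the replicate number as a block, 2 genes were called in FLOX (Ccl6 and Cxcl9) and 3 in LKO. Averaged over genotypes the number was 9 (18.3% of all genes), and in the other comparisons 0. No call was lost in LKO, where deviations of same-numbered libraries correlated at 0.101 to 0.294. The labels give the numbers without saying that they pair libraries. No call reversed its direction in the alternatives run. Over all 56 genes, comparisons and alternatives, calls of single genes were lost in 34 cases and gained in 60, and the cause was not tested.

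The log2 ratio of Ccl6 to Ccl9, a comparison chosen after the values had been seen, differed by 1.94. When each library was left out it differed by 1.61 to 2.36. Without the 4 libraries numbered 1 it differed by 2.15, where 8 libraries allow no smaller exact p than 0.0556. With no scaling factor the median log2 fold change of all genes moved from 0.05 to 0.32 for the diet in LKO and from 0.01 to 0.45 for the knockout on HFHS, and the calls of chemokine genes for the diet stayed at 3 in LKO and 6 averaged. FPKM computed from counts and lengths kept the order of the 10 highest genes (51.1 for Cxcl12 in place of 42.4). Genes with few counts, such as Cxcr5, Cxcr3 and Ccl22, had SE above 1 on the log2 scale, which limits what these libraries can show of them.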
